A study of Drosophila melanogaster with 2 samples.

Results

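The genes described here are 10 genes of the ecdysone pathway of Drosophila melanogaster: the receptor genes EcR and usp, the coactivator gene tai, the response genes br, Eip74EF, Eip75B, Hr3 and ftz-f1, the transporter gene E23 and the nuclear receptor gene Hr96. They were taken by name, as 10 of 13945 protein-coding genes on the chromosome arms, and every peak summit inside a gene body or within 5 kb on each side was assigned to its gene. That stretch is called the gene span. The peaks come from chromatin immunoprecipitation and sequencing (ChIP-seq), which finds the DNA to which a chosen protein is bound or held close. The protein was an eGFP fusion of CG43689, made by transgenic flies and precipitated with an antibody against GFP, although another label field names the antibody as CG43689. The material was whole embryos of 8 to 24 h, sonicated to 200 to 800 bp, so tissues are mixed and a peak from a few cell types cannot be told apart from a weak peak in all of them. There were 2 biological replicates of 1 group, with no second condition and no input library analysed here.

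Ecdysone is the steroid hormone that times moulting and metamorphosis in insects, and a pulse of it in mid-embryogenesis accompanies the large movements of the germ band and the head. It acts through a heterodimer of the nuclear receptors EcR and Ultraspiracle, which switches on a small set of early genes encoding transcription factors. The early gene products act on one another and on later genes such as Hr3 and ftz-f1, so that the hormone pulse is turned into an ordered series of gene activities. Several of these genes are long and have many alternative promoters, and for them the place of a peak along the gene matters as much as its presence.

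The DNA under 6 of the summits is shown first, because these are 3 promoter summits and the strongest intron summit of 3 response genes. Each sequence covers 50 bases on each side of the summit base, 101 bases in all, read from the plus strand of the RefSeq genome of the dm6 build. Capitals mark runs of 6 or more A or T bases.
E23 promoter, chr2L:3355009-3355109: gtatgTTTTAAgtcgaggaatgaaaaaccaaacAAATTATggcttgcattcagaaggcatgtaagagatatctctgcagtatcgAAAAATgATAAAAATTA
Hr96 promoter, chr3R:25025071-25025171: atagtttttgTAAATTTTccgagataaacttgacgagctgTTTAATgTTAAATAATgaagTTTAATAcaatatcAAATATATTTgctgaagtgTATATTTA
tai promoter, chr2L:9166561-9166661: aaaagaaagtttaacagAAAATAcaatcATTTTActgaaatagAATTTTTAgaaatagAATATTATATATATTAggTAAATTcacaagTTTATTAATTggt
Eip75B intron, chr3L:18019759-18019859: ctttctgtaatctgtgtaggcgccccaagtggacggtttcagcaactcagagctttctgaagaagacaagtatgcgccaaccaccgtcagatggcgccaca
Eip74EF intron, chr3L:17567041-17567141: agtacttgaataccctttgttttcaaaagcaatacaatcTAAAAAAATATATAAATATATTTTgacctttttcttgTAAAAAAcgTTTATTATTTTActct
ftz-f1 intron, chr3L:18769497-18769597: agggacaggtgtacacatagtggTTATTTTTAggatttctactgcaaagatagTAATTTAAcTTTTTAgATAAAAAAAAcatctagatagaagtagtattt
The capitals cover 52 of the 101 bases at tai, 48 at Hr96, 43 at Eip74EF, 33 at ftz-f1 and 29 at E23. The Eip75B window has none.

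The main peak list was the pooled thresholded list of 2088 peaks, which passed the authors' irreproducible discovery rate (IDR) threshold. The IDR asks whether a peak keeps its rank when peaks are called again on another set of reads. The ranked list behind it holds 151546 candidate peaks, of which 1.38% are main peaks. Each peak carries the authors' own signal value, whose median was 88.1 in the main list and 18.6 in the ranked list, and a signal is read here only within its list. The replicate thresholded lists hold 1253 peaks in replicate 1 and 1265 in replicate 2, with median signals of 58.4 and 62.0. The files give no read counts, so the depth of each library is unknown.

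A main summit lay in the span of 9 of the 10 genes, against 27.4% of all protein-coding genes, and usp was the gene without one. Gene length enters this count, since a longer span can hold more summits. All 6 members of 50 kb or longer had a main summit, against 55.4% of the 307 protein-coding genes of that length. Of the 4 shorter members 3 had one, against 26.7% of shorter genes. The share of genes with a main summit grew with length over all genes, to 55.8% of genes of 50 to 100 kb, a bin that holds 5 of the members, and was 54.2% above that. The members were chosen with earlier results of these data known, so these counts are descriptions and no test was made of them.

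**Figure D1:**
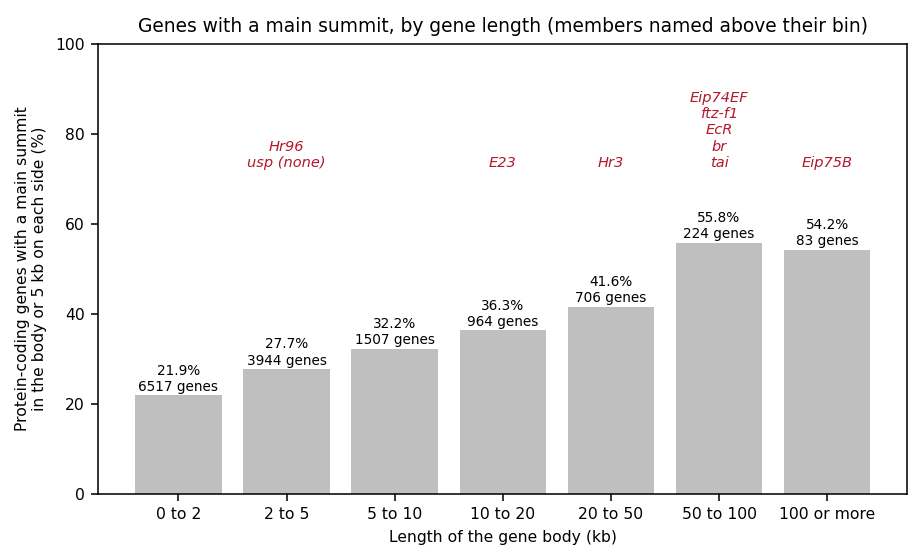
Share of protein-coding genes with a main summit in the gene body or 5 kb on each side (vertical axis, %) by length of the gene body (horizontal axis, kb); the number of genes stands above each bar and the members are named above their bin. The share is 21.9% under 2 kb and 55.8% at 50 to 100 kb, and usp is the member without a main summit.

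The 9 genes held 19 main summits in all: 14 in introns, 4 at promoters, taken as 500 bp on each side of an annotated start site, and 1 in an upstream flank. Their signals ran from 2.68 to 403 with a median of 94.8, and 12 of the 19 were at or above the median of the main list. The member spans held 2.97 main summits per 100 kb, against 1.74 over the spans of all protein-coding genes, 1.08 over genes of 50 kb or longer and 1.54 over the chromosome arms. Over all candidates of the ranked list the order differed: the members held 103 per 100 kb, against 114 over all coding spans and 112 over the long genes. The density was uneven among the members: it was 14.2 per 100 kb in the 14.1 kb span of Hr96, 8.24 in ftz-f1 and 1.00 in br. The Hr96 value rests on 2 summits, each nearer to the start of a neighbour, EMC6 or beta4GalT7. The densities move with the list: the thresholded list of replicate 1 alone gave 8 summits and 1.25 per 100 kb in the member spans, and that of replicate 2 alone gave 12 and 1.87. These lists are shorter, and over the spans of all protein-coding genes they held 1.05 and 1.06 per 100 kb. A summit was then in 7 of the 10 genes in replicate 1, against 19.7% of all protein-coding genes, and in 8 in replicate 2, against 18.8%. For 14 of the 19 summits the nearest start of any protein-coding gene was the member's own. These include the Hr3 summit, whose nearest start is shared with the gene CG46321, and both EcR entries, which lie 200 bp apart.

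**Figure D2:**
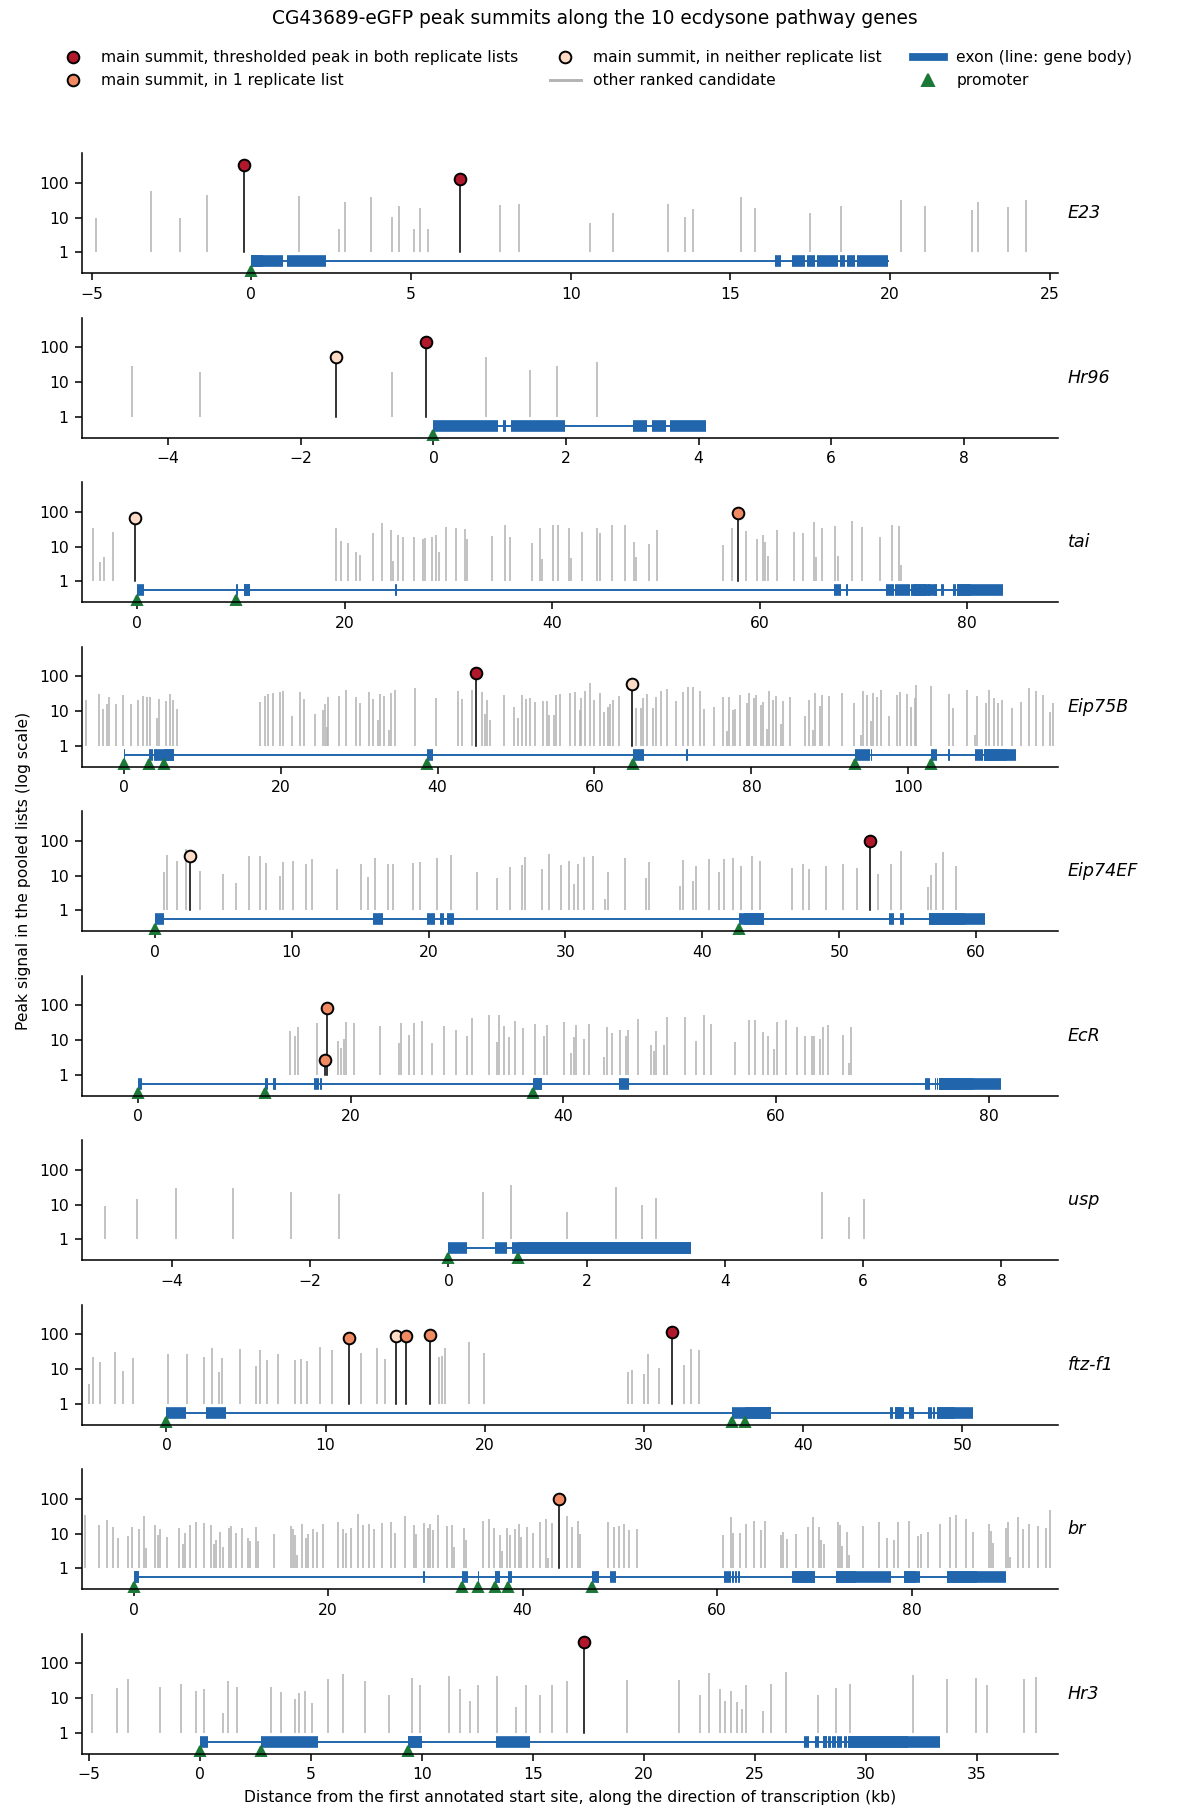
Peak summits along the 10 genes: distance from the first annotated start site in the direction of transcription (horizontal axes, kb) against pooled signal (vertical axes, log scale). Circles are main summits, filled dark where a thresholded peak of both replicates overlaps and lighter for 1 or none; grey lines are ranked candidates outside the main list, blue boxes are exons and green triangles are promoters. Hr3 and E23 carry the highest summits, 403 and 317, ftz-f1 has 5 and usp none.

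Not all main summits were seen in each replicate alone. A thresholded peak of both replicates overlapped 7 of the 19 summits, which lie in 6 genes, a peak of 1 replicate overlapped 7 more, and 5 had none. Over the whole main list 881 of the 2088 peaks had a thresholded peak of both replicates, so this is not particular to the members. Replicate 2 had a thresholded peak at 13 summits and replicate 1 at 8. The 13 rest on 12 peaks of replicate 2, since both EcR entries overlap the same one. The matching split by replicate over the whole main list is not given here, so this difference is not shown to be particular to the members. In the full ranked list of each replicate a candidate overlapped 18 of the 19. The 7 summits with both replicates were those with the 6 highest signals, at Hr3, E23 (2 summits), Hr96, Eip75B and ftz-f1, and the Eip74EF intron summit of 97.9.

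**Figure D3:**
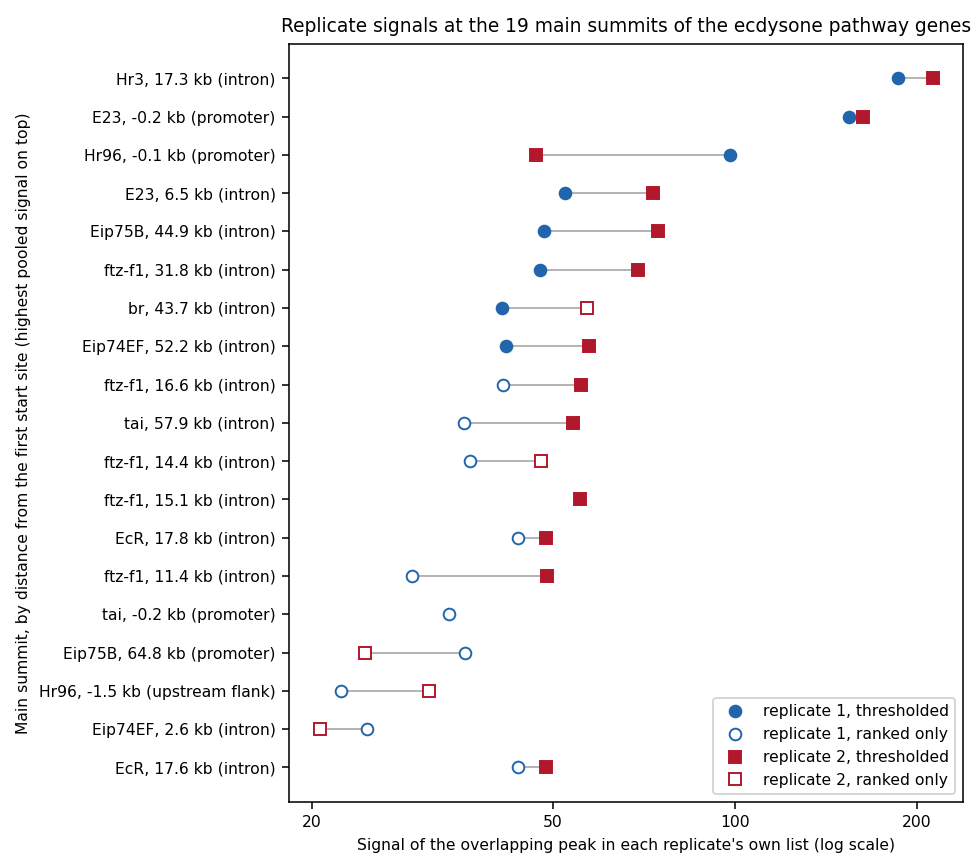
Signal of the overlapping candidate peak in each replicate's own list (horizontal axis, log scale) at the 19 main summits, ordered by pooled signal (vertical axis); circles are replicate 1, squares replicate 2, and filled symbols are peaks that passed the threshold in that replicate. Both symbols are filled at 7 summits, and replicate 1 has no candidate at the ftz-f1 summit at 15.1 kb while replicate 2 has none at the tai promoter.

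EcR encodes the ecdysone receptor in several isoforms that differ in their first exons and start from 3 promoters in this annotation. Its main summit of signal 80.6 ranked 1198 of 2088 and lay at chr2R:6151162-6151461, in intron 3 of 6 of the transcript from the first start and intron 4 of 7 of those from the second. It was 5817 bp downstream of the second start, in an intron of 56.8 kb. Its replicate signals were 43.8 in replicate 1, where it was only a ranked candidate, and 48.7 in replicate 2, where it passed the threshold. The second EcR entry of the main list lies 200 bp away with a signal of 2.68, and overlaps the same replicate peaks. It is 1 of 35 main peaks with a signal under 10. A tRNA gene for asparagine starts 1364 bp from the stronger summit. None of the 3 EcR promoters had a main summit, and the strongest promoter candidate had a signal of 28.8, 40 bp downstream of the start of EcR-RG.

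The usp gene encodes Ultraspiracle, the partner of EcR and the fly member of the retinoid X receptor family. It is the shortest member at 3.51 kb. Its 15 ranked candidates had signals of 4.25 to 35.8, and none passed a threshold in the pooled, conservative or replicate lists. The strongest, 35.8 with rank 14459 of 151546, lay 98 bp upstream of the start of usp-RA. The nearest main summit was 7981 bp from the start of usp-RB, outside the span.

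The gene tai encodes Taiman, a coactivator of the ecdysone receptor known for its part in border cell migration in the ovary. Its stronger main summit, 94.8 at chr2L:9224513-9224812, lay 48305 bp downstream of the nearest tai start, the farthest among the intron summits, in an intron of 42.2 kb shared by all 6 transcripts. The start of the protein-coding gene aust, at 26379 bp, was nearer, and that of a tRNA gene for threonine nearer still, at 11931 bp. Replicate 1 had a ranked candidate of 35.7 there and replicate 2 a thresholded peak of 54.0. The promoter summit, 67.7 with rank 1544, lay 167 bp upstream of the first tai start, but the start of the neighbour CG9586 was nearer, at 97 bp. It had a candidate of 33.8 in replicate 1 and no overlapping candidate in replicate 2, and no peak of the conservative list overlaps it.

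The br gene, which encodes the Broad family of BTB zinc finger factors that specify pupal fate, has 16 annotated transcripts and 6 promoters. It held 143 ranked candidates, the second highest number among the members, but only 1 main summit. That summit, 98.4 at chrX:1618711-1619010, was intronic in 14 transcripts and lay 3447 bp upstream of the last promoter. Its replicate signals were 41.2 in replicate 1, past the threshold, and 57.0 in replicate 2, not past it. The gene Mur2B overlies it and starts 706 bp away, nearer than any br start. The br promoter candidates were the weakest of all, with signals of 14.0 to 15.1 at the 4 promoters that had any.

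Eip74EF encodes ETS domain factors from 2 promoters, 42.7 kb apart. Its main summit of 97.9, whose sequence is shown above, lay at chr3L:17566941-17567240, 9229 bp downstream of the start of Eip74EF-RD and in an intron of all 5 transcripts. Both replicates had a thresholded peak there, of 41.9 in replicate 1 and 57.4 in replicate 2. The other main summit, 2575 bp from the first start in intron 1, had a signal of 37.1 and ranked 2027. A stronger candidate of 57.7 lay 256 bp from it and was not a main peak, its deposited score being 325 against 939 for the weaker one. The strongest replicate candidates that overlap the weaker peak were 24.7 in replicate 1 and 20.6 in replicate 2, neither past the threshold. Their own summits lay 248 bp from the weaker summit in replicate 1 and 65 bp in replicate 2. Only the strongest overlapping candidate was read, so whether replicate 1 had a weaker one centred there was not checked.

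Eip75B encodes a heme-binding nuclear receptor, and its 7 transcripts each start at a promoter of their own along 113.7 kb. Its strongest summit, 124 at chr3L:18019659-18019958, lay 6223 bp downstream of the start of Eip75B-RG, in an intron of the 4 transcripts that cross it. The thresholded replicate signals were 48.4 in replicate 1 and 74.5 in replicate 2. The second main summit, 59.0 with rank 1863, lay 36 bp upstream of the start of Eip75B-RC, which makes that the only Eip75B promoter of 7 with a main summit. Replicate 1 had a candidate of 35.8 there and replicate 2 one of 24.4, neither past the threshold, and the conservative list had no overlapping peak. A candidate of 53.0 stood 59 bp downstream of the start of Eip75B-RD, just below the main summit in signal and not a main peak. A higher candidate, 62.8, in the same intron as the strongest summit was not a main peak either, but it passed the threshold in the conservative list, with rank 1703 of 2048 and a score of 890.

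The Hr3 gene encodes the orphan nuclear receptor HR3, which is known to switch on ftz-f1 in prepupae and whose activity the E75 proteins can repress. It carried the highest summit of the 10 genes, with a signal of 403, ranked 51 of 2088 in the main list. The summit lay at chr2R:10219996-10220160, 7911 bp downstream of the third promoter and in an intron of all 6 transcripts. Replicate 1 had 186 with rank 63 of its thresholded list, and replicate 2 had 212 with rank 46. The genes CG12912 and CG46321 overlie the same position, and CG46321 shares the start site, so the summit cannot be given to Hr3 alone. The next candidate in the Hr3 span had a signal of 56.3, and each Hr3 promoter had a candidate, of 18.7, 20.9 and 37.1.

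The gene ftz-f1 encodes a nuclear receptor of the NR5A family, the partner of the segmentation protein Fushi tarazu in the early embryo and a competence factor for the prepupal response to ecdysone. Its 5 main summits were the most of any member, and 12 of the 307 long genes, or 3.91%, had 5 or more. All 5 lay in intron 2 of the longest transcript, ftz-f1-RB, an intron of 33.7 kb. The strongest, 118 at chr3L:18769397-18769696, was 3803 bp upstream of the start of the shorter transcripts ftz-f1-RC and ftz-f1-RD, with thresholded peaks of 47.6 in replicate 1 and 69.2 in replicate 2. The other 4 fell within 11.4 to 16.6 kb of the ftz-f1-RB start, with pooled signals of 97.3, 89.0, 88.2 and 78.7. Replicate 2 had thresholded peaks at 3 of these 4, of 55.6, 55.5 and 48.9. Replicate 1 had none past the threshold there, and its ranked candidates at 3 of the 4 were 41.4, 36.6 and 29.2. The long noncoding RNA gene CR45939 overlies these 4 summits, and its start lies 3 bp from that of ftz-f1-RB. The conservative list held a sixth ftz-f1 peak, of 58.7, in the same intron.

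E23 encodes an ABC transporter that is itself induced by ecdysone and is known to dampen the response to it. Its promoter summit, 317 at chr2L:3355011-3355107, lay 230 bp upstream of the single start site of its 3 transcripts and ranked 88 of 2088. The replicate signals were 154 in replicate 1 and 163 in replicate 2, with ranks 93 and 91 in their thresholded lists, so its place was nearly the same in each. The second E23 summit, 129, lay 6527 bp inside the gene in intron 2 of 8, with 52.5 in replicate 1 and 73.1 in replicate 2, both past the threshold. E23 was thus the 1 member with 2 summits that both replicates called.

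Hr96 encodes a nuclear receptor known for control of lipid and xenobiotic metabolism and is the least directly tied of the 10 to the hormone. Its promoter summit, 143 at chr3R:25024971-25025270, lay 114 bp upstream of its start and 104 bp from the start of the neighbour EMC6, which is the nearer. It passed the threshold in both replicates but at different ranks. Replicate 1 had a signal of 98.1 and rank 229 of 1253, and replicate 2 a signal of 47.0 and rank 1021 of 1265. The replicate summits lay 8 and 3 bp from the pooled one. The flank summit of 53.4, 1471 bp upstream of Hr96, lay inside the gene beta4GalT7, 508 bp from that gene's start, and had only ranked candidates in the replicates, 22.4 in replicate 1 and 31.2 in replicate 2.

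By promoter, 4 of the 10 genes had a main summit within 500 bp of a start, at E23, Hr96, tai and Eip75B, against 8.36% of all protein-coding genes. At Hr96 and tai the start of a neighbour was nearer to the summit, EMC6 at 104 bp and CG9586 at 97 bp. The promoter peaks of these 4 genes were already listed in the earlier results known when the genes were chosen. The promoter counts here are therefore descriptions, and the shares beside them test nothing. The members have 35 start sites, grouped here into 30 promoters, and several chances per gene enter this count. Of the 30 promoters 4 had a main summit, 16 had only a ranked candidate and 10 had neither. The strongest candidates at the 16 had signals of 14.0 to 53.0 with a median of 23.5. In the conservative list and in each replicate list only the E23 and Hr96 promoters remained, that is 2 of 10 genes, against 8.0%, 6.02% and 5.67% of all protein-coding genes in the conservative, replicate 1 and replicate 2 lists.

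**Figure D4:**
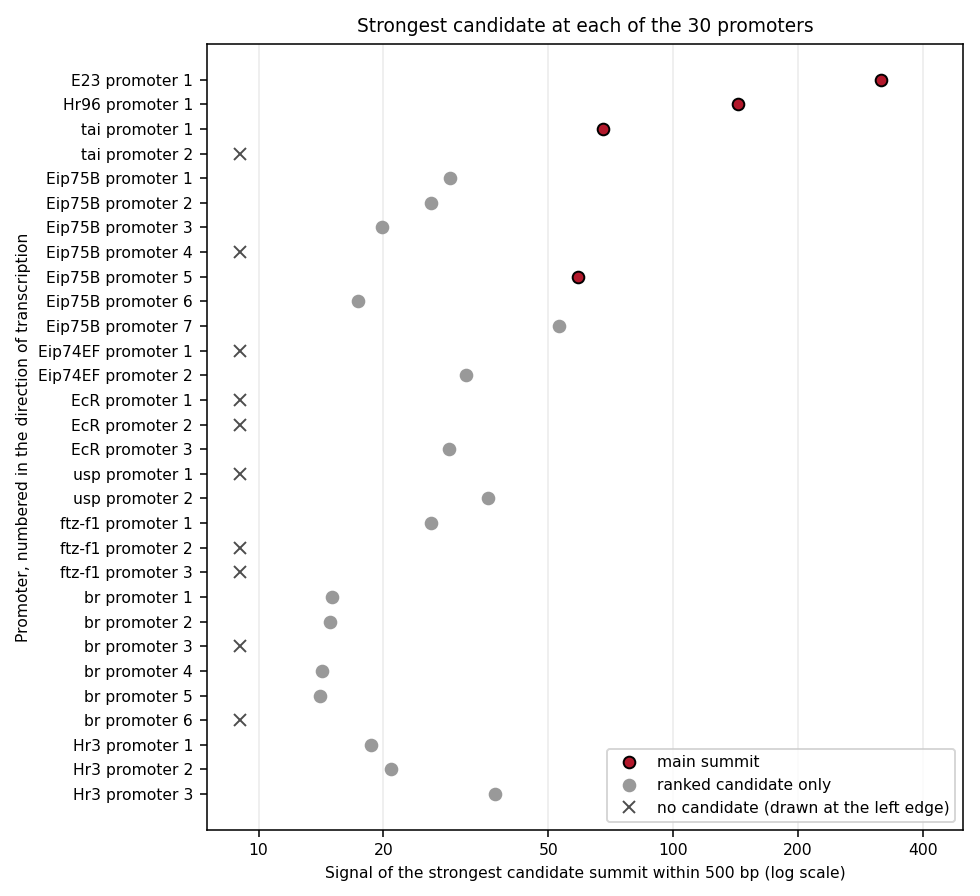
Signal of the strongest ranked candidate within 500 bp of each of the 30 promoters (horizontal axis, log scale), with promoters numbered in the direction of transcription (vertical axis); dark circles are main summits, grey circles ranked candidates only and crosses promoters with no candidate. E23 at 317 and Hr96 at 143 stand apart, and the Eip75B summit of 59.0 is close to the ranked candidate of 53.0 at another Eip75B promoter.

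The 10 promoters without any candidate belong to 7 genes, with 1 or 2 in each. Ranked candidates are dense, but 7 of the genes have stretches of 6 kb or more without one, 12 stretches that take up 23.3% of the member spans, against 15.4% of the chromosome arms. Of the 30 promoters 7 lie inside such stretches, among them 6 of the 10 empty ones: the second of tai, the first of Eip74EF, the first and the second of EcR, and the second and the third of ftz-f1. Since the stretches are defined by having no candidate, this is a description only. The first EcR stretch runs over 27.1 kb and holds 3 candidates in the ranked list of replicate 1 and 1 in that of replicate 2. The tai stretch of 19.3 kb starts at the promoter summit and holds 11 candidates of replicate 1 and 1 of replicate 2. What sets these stretches apart was not tested, and an absence of candidates there is not shown to be an absence of binding.

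The intron summits lay 2575 to 48305 bp from the nearest start of their own gene, with a median of 7219 bp. The 6 members of 50 kb or longer had 12 of their 14 main summits in introns and 2 at promoters, or 85.7% and 14.3%, against 68.2% and 12.0% over all protein-coding genes of that length. The 12 include the 5 summits in 1 intron of ftz-f1 and the 2 EcR entries 200 bp apart, so they are not 12 separate cases. The 5 summits of the shorter members were 2 in introns, 2 at promoters and 1 in a flank. Among the 662 ranked candidates of the members 72.4% were in introns and 4.23% at promoters. Of these 662, 19 are in the main list, or 2.87%, against 1.38% over the whole ranked list.

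The members' summits were poor in G and C, like most main summits, with exceptions. The GC content within 50 bp of the summit had a median of 34.7% (17.8 to 58.4) at the 19 summits, 32.7% at all 2062 main summits on the chromosome arms and 46.5% at the other ranked summits there. It was below that of the windows of the same width 400 bp to each side at 13 of the 19, against 73.8% of all main summits. The Hr96 promoter had 22.8% at the summit and 52.0% in those side windows, and the Eip74EF intron summit 20.8% and 45.0%. At 6 summits it went the other way, most at the EcR summit of signal 80.6, with 46.5% and 19.8%. The tai intron summit had 54.5% and 38.6%, and the strongest Eip75B intron summit 52.5% and 45.5%. The longest run of A and T bases had a median of 10 bases at the members and at all main summits, and 7 at the other ranked summits.

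**Figure D5:**
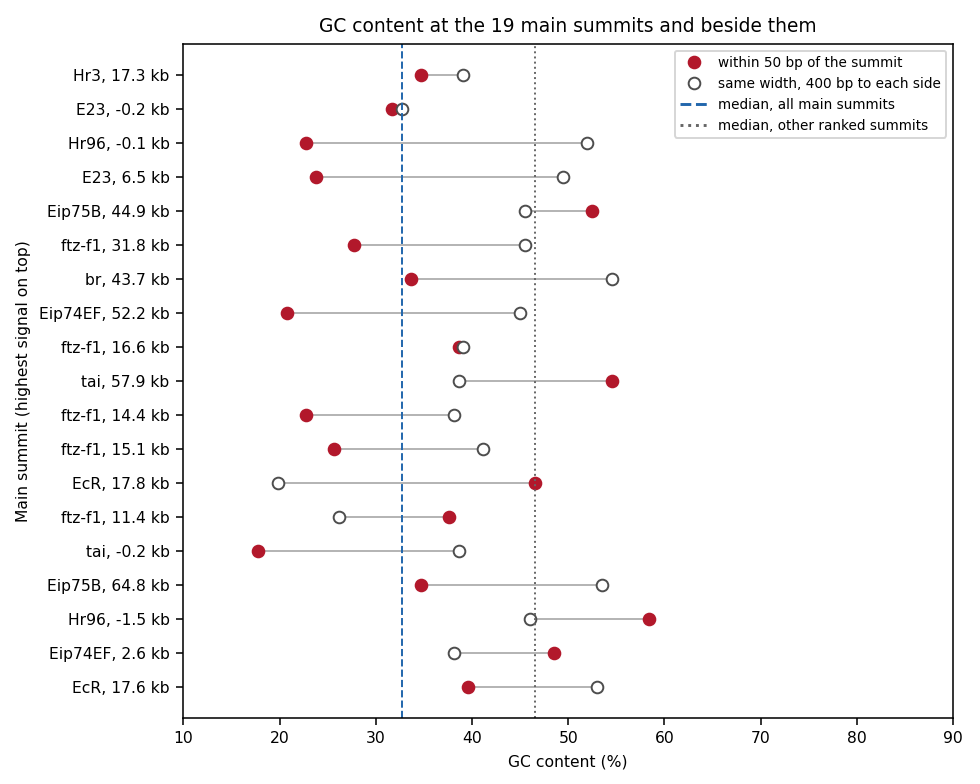
GC content (horizontal axis, %) within 50 bp of the 19 main summits (filled circles) and in windows of the same width 400 bp to each side (open circles), ordered by signal (vertical axis); lines give the medians of all main summits, 32.7%, and of the other ranked summits, 46.5%. The filled circle lies left of the open one at 13 of the 19.

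Short motifs were searched on both strands of the 101-base windows. The nuclear receptor core AGGTCA was found at 1 of the 19 summits, the Eip74EF intron, where it reads as tgacct on the printed strand, against 1.89% of all main summits and 2.82% of the other ranked summits. The inverted core of the EcR type, GTCANTGAC, the NR5A type TCAAGGTCA, the ROR type ATNAGGTCA and the ETS core CCGGAA were at none of the 19. Among all main summits they were at 0.0%, 0.0485%, 0.0485% and 2.76%. The A- and T-rich words were more frequent: AAATAT was at 6 of the 19 against 32.7% of all main and 12.5% of the other ranked summits, and AAAAAA at 8 against 25.7% and 14.3%. TATAAA was at 3 against 21.5% and 7.94%, TATATA, which can overlap it, at 3 against 11.6% and 4.02%, and GAGAG at 3 against 9.31% and 12.2%. The words TATCGATA and CACGTG were at none, against 1.12% and 0.582% of all main summits. In the Eip75B intron sequence the word AGNTGGCGC stands out; it was searched after the sequence was seen, and was at that summit alone among the 19, at 1.12% of all main and 0.381% of the other ranked summits. A match is a description of letters, and no match says only that these letters are not in this window.

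A wider list of ecdysone genes, with 62 other genes matched in the annotation, gives the setting. Of these 25, or 40.3%, had a main summit in their span and 7, or 11.3%, at a promoter, against 27.4% and 8.36% of all protein-coding genes. Gene length enters the span count here too and was not matched. Of the 62 genes 5 are 50 kb or longer, and 3 of those had a main summit. By group the count with a main summit was 6 of 18 for steroid synthesis, degradation and uptake, 7 of 12 for receptors and cofactors, 5 of 12 for the early and early-late response and 7 of 20 for puff and imaginal disc genes. The highest signals were 226 at ImpL2, which encodes a secreted binder of insulin-like peptides, 221 at Eip63E, a cyclin-dependent kinase gene, 213 at gce, a receptor gene for juvenile hormone, and 208 at Hr4, a nuclear receptor gene with 6 main summits along 66.0 kb. At 14 of the 25 genes the strongest summit was nearest to the start of a neighbour, among them 5 of the 6 in the synthesis group and 4 of the 7 receptor and cofactor genes. The remaining gene listed in the synthesis group is ImpL2, which by the function given above is not a synthesis gene. Its nearest start is shared with the gene CG46460. Nup98-96 is among the genes where a neighbour's start is nearest: its strongest summit of 195 lay in its downstream flank, 89 bp from the start of tst. The ecdysone synthesis gene sad had a main summit of 77.9 in its downstream flank, 82 bp from the start of CG6962.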

How the data were processed

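Peak lists on dm6 were deposited, called per replicate and on both replicates pooled and thresholded by irreproducible discovery rate, per the labels and the deposited file descriptions. The sources used here do not give the aligner or the peak caller. With every peak the authors deposited a signal, whose scale is not stated, and a score of up to 1000. In each of the 4 ranked lists 10 further value columns have no name and were not used. No read counts are given, so depth is unknown.

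From the lists, summits on the 6 chromosome arms were joined to Ensembl release 115 genes with Python 3.11.15, numpy 2.4.6, pandas 2.3.3 and matplotlib 3.10.9. Start sites within 500 bp of a neighbour were grouped into 1 promoter, replicate overlap was 1 bp or more, and distances are to the nearest start of the member, negative upstream. All members are named with every main summit, other genes where their start is nearer or where they are of the wider list with a main summit, and genes overlying a summit were added after their positions were seen. The counting was tested on simulated peaks placed at known positions. The 10 genes, the wider list and the motifs were chosen with earlier results of these data known, in which the promoter peaks of E23, Hr96, tai and Eip75B were already listed, so no test was made. Alternatives were other lists, single replicates, peak overlap, the median signal, flanks and promoter widths.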

Additional observations from a re-analysis of the deposited data

How the results depend on the processing

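The count of genes with a main summit in the span, 9, ran from 6 to 10 over 11 alternatives and stayed within 1.5 times of it. The other counts depended on the peak list. With 1 replicate left out, using the thresholded list of the other, the summits were 8 to 12 against 19, the genes with a promoter summit 2 in either case against 4, and the density 1.25 to 1.87 per 100 kb against 2.97. The conservative list left 2 genes with a promoter summit. Main peaks at or above the median signal gave 12 summits, 2 such genes and 1.87 per 100 kb. Main peaks with peaks of both replicates gave 7 summits, 2 genes and 1.09 per 100 kb, or 6, 1 and 0.937 where each overlap had to cover 50% of each peak. Summits nearest to the member's own start, with the shared Hr3 start counted as own, gave 2.19 per 100 kb. These alternatives hold fewer peaks by construction, but the conservative list only slightly fewer, 2048 against 2088. Its share of all protein-coding genes with a promoter summit was 8.0% against 8.36% in the main list. Flanks of 0, 2 and 10 kb, promoters of 250 and 1000 bp, and leaving out peaks under a signal of 10, the last chosen after the data were seen, moved none of these counts by over 1.5 times. At 10 kb usp joins. No paired analysis was possible because the 2 replicates form 1 group. Without read counts or an input library, an absent peak shows only that none was called.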
